A study of Mus musculus with 28 samples.

Results

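Livers of mice that were gavaged with water alone were compared between the study's 2 gavage schedules. These were 7 of the 28 libraries of the series. Of them, 3 came from the group labelled control at 2680 mg/kg/d and 4 from the group labelled control at 1340 mg/kg/d. The other libraries came from NMN-gavaged livers and from kidneys. The dose in the label is that of the NMN mice of the same schedule. The control mice received no NMN in either group, and the sources state 1 gavage of water a day for 1340 and 2 for 2680, for 7 days. All were males of 8 weeks, of the strain C57BL/6 in the labels and C57BL6J in the study's methods. They are called the 1340 livers and the 2680 livers here. Each library is 1 labelled replicate of polyA RNA from whole liver, and no label says which cohort, sequencing run or instrument it belonged to. The number of gavages, the cohort and any sequencing batch therefore cannot be told apart. The p-values measure only the spread between these libraries.

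The liver is built mainly of hepatocytes, which make plasma proteins and bile acids and handle glucose, fat and drugs. Its capillaries, the sinusoids, are lined by a specialised endothelium and hold resident macrophages called Kupffer cells. Many hepatocyte transcripts follow the feeding state and the time of day through insulin, glucagon, glucocorticoids and the circadian clock. The hepatocyte markers were abundant in every library. Their 10 genes, Alb the most abundant, summed to 110477, 134054, 99034 and 127644 CPM (counts per 1000000 reads on TMM-scaled libraries) in the 1340 livers and to 183469, 174259 and 164386 CPM in the 2680 livers.

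The libraries of the 2 groups differed in their technical measures as well as in their genes. Counted reads were 12925839, 15010243, 13793044 and 15186601 in the 1340 livers and 20607504, 20635269 and 17573184 in the 2680 livers. Mitochondrial genes took 4.86, 3.89, 5.34 and 4.19% of the counted reads in the 1340 livers and 6.91, 5.74 and 7.37% in the 2680 livers. Every 2680 liver was deeper and richer in mitochondrial reads than every 1340 liver. Reads that aligned to more than 1 place made up 12.8, 10.1, 10.1 and 10.9% of all lines in the 1340 livers against 14.2, 13.9 and 14.2% in the 2680 livers. Reads outside annotated exons made up 5.55, 5.01, 7.43 and 5.28% against 3.62, 3.27 and 3.47%. The reads that could not be placed on 1 gene were thus more often repeated and less often outside exons in the 2680 livers. Ambiguous reads took 3.35 ± 0.154% (SD, n = 4) and 2.78 ± 0.101% (SD, n = 3). The 10 most abundant genes took 19.7 ± 1.46% and 23.5 ± 0.692% of the counted reads on nuclear genes. In counts thinned to 12688324 reads, the smallest library of the series, 17111 ± 339 and 15915 ± 265 genes had a read. Thus the 2680 livers had fewer detected genes at equal depth. None of these 7 measures overlapped between the groups. Each had p = 0.0571 in an exact permutation test (two-sided), both before and after Benjamini-Hochberg adjustment over the 7, and that is the smallest p that 3 libraries against 4 allow.

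**Figure D1:**
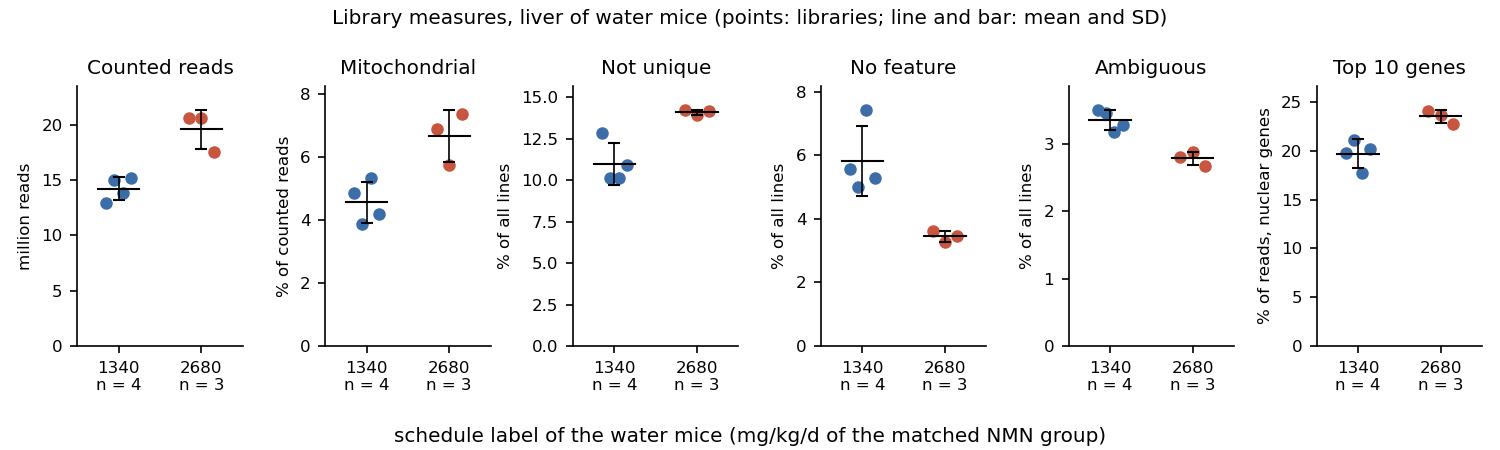
Depth, mitochondrial share and the shares of reads not assigned to a gene, in percent or reads, for the 4 livers of the 1340 schedule (blue) and the 3 of the 2680 schedule (red), with the mean and SD. In each of the 6 panels all points of one schedule lie above all points of the other.

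Most of these measures were also split in the other libraries of the 2 schedules. In the livers of the NMN mice the mitochondrial share was 5.03 ± 0.625% (SD, n = 4) at 1340 and 7.81 ± 1.24% (SD, n = 3) at 2680. In the kidneys of the water mice it was 9.71 ± 0.702% (n = 4) and 20.6 ± 0.907% (n = 3). The share of reads that were not unique was 11.1% and 19.6% in these kidneys. Neither measure overlapped between the schedules in either set of libraries. Of the other measures, the number of genes detected at equal depth overlapped in both sets, and in the NMN livers so did the share outside exons and that of the 10 most abundant genes.

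The 1340 livers also held transcripts of other organs at a low and even level. A set of 37 kidney transcripts was chosen only from the NMN mice of the 2680 schedule, by at least 100 CPM in the kidney and a median in the liver of at most 0.01% of that level. In the 1340 water livers the set summed to 0.113, 0.129, 0.139 and 0.119% of its level in the kidneys of the same schedule. In the 2680 water livers it summed to 0.00412, 0.0283 and 0.00665%. The 4 values at 1340 lay close together and above all 3 at 2680, of which replicate 2 was the highest. The set was chosen in mice of the 2680 schedule, so the choice favours low values in the water livers of that schedule. No conclusion is drawn from the difference between the schedules in this set. The NMN livers gave 0.138, 0.125, 0.119 and 0.166% at 1340 and 0.118, 0.00252 and 0.00321% at 2680, so that 1 NMN liver of the 2680 schedule also carried the set. The low values of the other 2 were fixed by the choice of the set and show nothing further. In the other direction, 84 liver transcripts were chosen from the same NMN mice by at least 100 CPM in the liver and a median in the kidney of at most 0.03% of that level, a looser limit than that of the kidney set. They stood in the kidneys of the water mice at 0.0852 to 0.129% of their liver level at 1340 and at 0.00780 to 0.00825% at 2680. This choice likewise favours low values in the kidneys at 2680. Kap, an abundant transcript of the proximal tubule, stood at 23.3, 27.7, 26.3 and 26.5 CPM in the 1340 livers and 0.533, 6.28 and 1.15 CPM in the 2680 livers (edgeR adjusted p = 0.0736). No calls are counted over the 37, since members could pass the filter on low counts through the 1340 livers alone.

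Transcripts of neurons were also at a low level in the 1340 livers and nearer to 0 in the 2680 livers. Snap25, a protein of synaptic vesicle fusion, had 5.58, 6.52, 5.49 and 5.22 CPM in the 1340 livers and no read in any of the 3 libraries of the 2680 livers. Counting 3 reads over those libraries as the limit, it was at least 114-fold lower. Camk2a, a calcium-dependent kinase of neurons, was at least 124-fold lower on the same basis, from 5.35, 6.65, 7.75 and 4.95 CPM, and Slc17a7, a vesicular glutamate transporter, at least 58.2-fold lower, from 1.94, 3.26, 3.57 and 2.77 CPM. These 3 genes had no read in the 2680 water livers, and were near 5.18, 5.57 and 2.75 CPM in the NMN livers at 1340. Bc1, a short noncoding RNA of neurons that shares 31.1% of its 50-base words with other transcripts, had 6.44, 4.96, 6.79 and 5.48 CPM in the 1340 livers and 0.267, 0.369 and 0.304 CPM in the 2680 livers. A list of 16 neuron markers was written after these values were seen. Their sum was 44, 44.5, 49.5 and 41.7 CPM in the 1340 livers and 4.96, 4.33 and 3.04 CPM in the 2680 livers, Kif5a was the most abundant, and 10 of the 16 had no read in the 2680 livers. Snap25 stood at 3.89, 3.44, 4.09 and 5.64 CPM in the kidneys of the water mice at 1340 as well. In a list of 10 glia markers of the same kind the sum, led by Cnp, was 51, 44.3, 61.5 and 44.1 CPM at 1340 and 44, 40.8 and 44.6 CPM at 2680, and here the groups overlapped. Cnp and Aldoc carried much of that sum, with means of 16 and 13.9 CPM at 1340 and 21.6 and 14.6 CPM at 2680. Other members went down, Mbp from 6.32 ± 2.42 CPM at 1340 (SD, n = 4) to 0.411 ± 0.382 CPM at 2680 (SD, n = 3) and Slc1a3 from 1.49 ± 0.312 CPM at 1340 (SD, n = 4) to 0.0533 ± 0.0924 CPM at 2680 (SD, n = 3), and Mobp and Mog had no read in the 2680 livers. The way these transcripts came into the libraries was not tested.

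**Figure D2:**
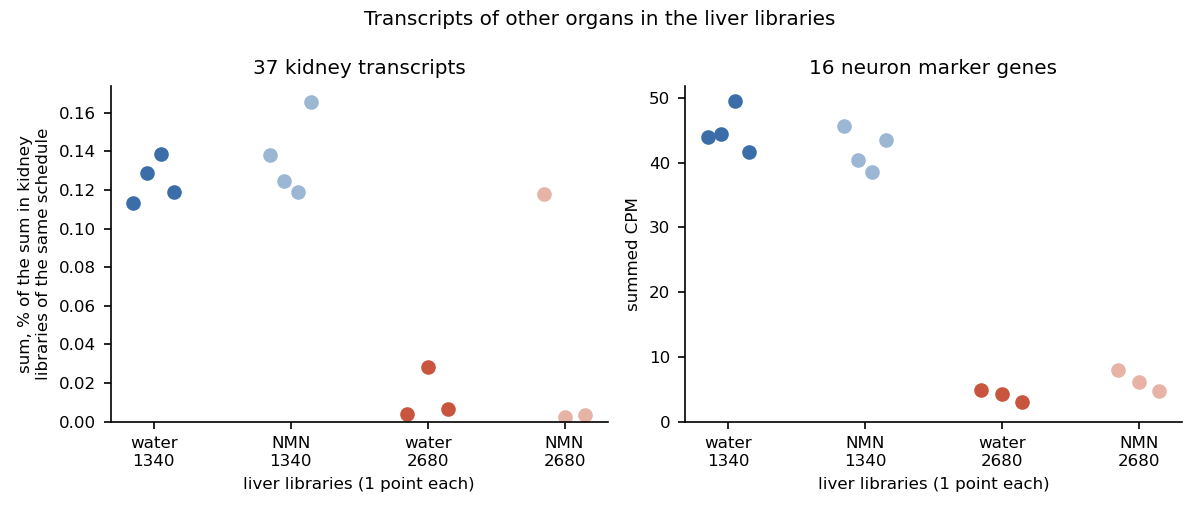
Left, the summed level of 37 kidney transcripts in each liver library, as a percentage of their sum in the kidneys of the same schedule. Right, the summed CPM of 16 neuron markers. Each point is 1 library of water or NMN mice. All 8 liver libraries at 1340 are high in both panels, and of the 6 at 2680 only replicate 1 of the NMN mice is high, in the left panel. There the low values of the other NMN livers at 2680 were fixed by the choice of the transcripts. That choice also favours low values in the water livers at 2680.

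Of 12541 genes with enough reads, 557 differed between the 2680 and the 1340 livers at an edgeR adjusted p under 0.05, which is 4.44% of the genes tested. Of these, 182 were higher in the 2680 livers (1.45%) and 375 lower (2.99%). The libraries of the 2 groups did not overlap for 2380 genes, or 19%. The median log2 fold change over all genes was -0.02, and the biological coefficient of variation between libraries was 24.3%. Blocking on the replicate number gave 1038 calls, 441 higher and 597 lower, and 526 of the 557 were among them. With offsets for GC content and transcript length the split was 390 higher and 394 lower. Leaving out 1 library left 310 calls without 1340 replicate 4, 337 without 2680 replicate 2, 339 without 2680 replicate 3 and 369 without 2680 replicate 1. Of the genes described below, Cyp2c29, Acsl5, Acss2, Zbtb20, Nr1d1, Dbp, Srebf1, Kcnq1ot1, Malat1, Acaa1a, Cp, Cox6c and several others overlap another annotated gene, and in a count without strand their reads are uncertain in the shared stretch.

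Some of the genes called lower were also near 0 in the NMN livers of the same schedule. Of the 375 lower genes, 140 (37.3%) had a mean under 0.5 CPM in the NMN livers of the 2680 schedule, which the test did not use, against 4.12% of all genes tested. Of the 182 higher genes 1, Gm12718, was below that level (0.549%). Those NMN livers share the 2680 schedule, and 337 of the 345 lower genes tested between the schedules there went the same way. A gene near 0 at 2680 can also pass the filter on low counts through the 1340 livers alone, and then only as lower. The contrast between these shares was thus largely fixed beforehand, and no conclusion is drawn from it. Among the genes at 1 CPM or more in those NMN livers, 179 were higher and 208 lower. Tested alone, as an alternative chosen after seeing the data, these genes gave 135 higher and 172 lower. This limit leaves out genes through their own fall at 2680. The smaller number of lower genes was thus fixed in part by the choice and shows nothing further. The genes described from here on are expressed in both groups of livers unless their values say otherwise. Counts of called list members in the main fit stand beside 1.45% higher and 2.99% lower among all genes tested.

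**Figure D3:**
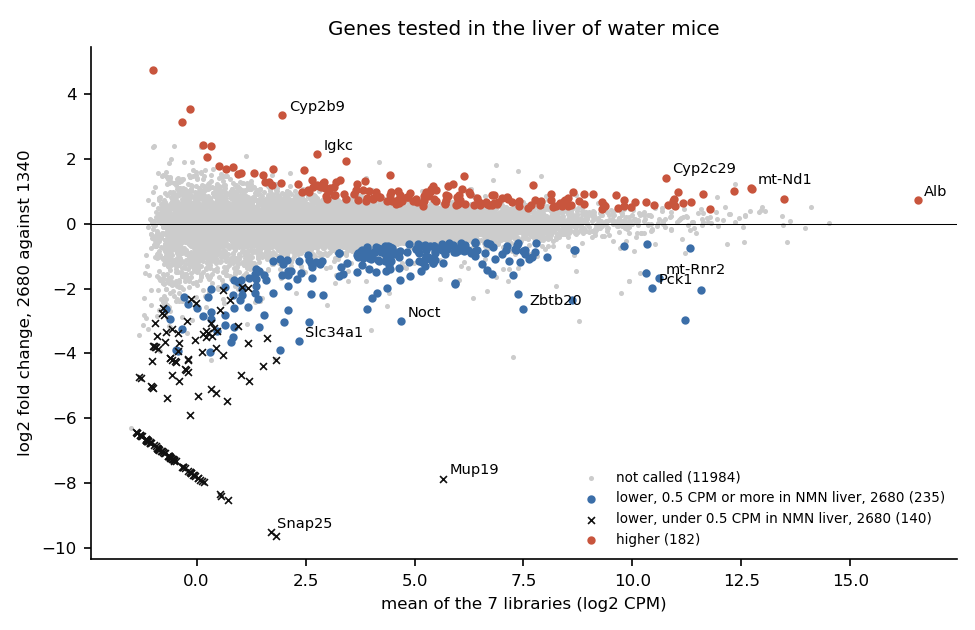
The log2 fold change of each of the 12541 genes tested, 2680 against 1340 livers, against its mean level on a log2 CPM axis. Red points are the 182 higher genes, blue points and black crosses the 375 lower ones, and the crosses are the 140 of them under 0.5 CPM in the NMN livers of the 2680 schedule. The crosses lie at the low end of the level axis, with Mup19 as an exception.

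Several mRNAs encoded by the mitochondrial genome rose in the 2680 livers. These mRNAs code for subunits of the respiratory chain. Of 13, 7 had enough reads for a test. Of these 5 were higher, beside 1.45% of all genes tested, and none lower, with a median log2 fold change of 0.97. mt-Nd1, a subunit of complex I, was at 4831, 4100.3, 4377 and 4852 CPM in the 1340 livers and 10911, 8578 and 9764 CPM in the 2680 livers (log2 fold change 1.1, standard error 0.12, edgeR adjusted p = 0.000578). mt-Nd2, another complex I subunit, had 4890.2, 4109.8, 4869.6 and 4807 CPM in the 1340 livers and 9689.5, 8773 and 11161 CPM in the 2680 livers (log2 fold change 1.08, standard error 0.12, edgeR adjusted p = 0.000665). The values of the 2680 livers were above those of the 1340 livers, without overlap, in both. mt-Nd4 rose from 3559.8 ± 432 CPM at 1340 (SD, n = 4) to 7215 ± 683 CPM at 2680 (SD, n = 3) and mt-Nd6 from 1499 ± 239 CPM at 1340 (SD, n = 4) to 2945 ± 301 CPM at 2680 (SD, n = 3). mt-Cytb, of complex III, went from 8786 ± 1275 CPM at 1340 (SD, n = 4) to 14862 ± 1656 CPM at 2680 (SD, n = 3), with edgeR adjusted p-values of 0.00157, 0.00293 and 0.00814 for the 3. mt-Nd6 overlaps mt-Nd5 and mt-Nd4 overlaps mt-Nd4l, so their counts are uncertain in the shared stretches. Of those not tested, mt-Atp8, mt-Co2, mt-Co3 and mt-Nd4l had no counted read in any of the 7 libraries. Reads that aligned to more than 1 place were not counted, so this does not show that these mRNAs were absent. Any such reads would also be missing from the mitochondrial share, and this was not tested.

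The ribosomal RNAs of the mitochondrion moved the other way. mt-Rnr2, the large ribosomal RNA, had 2094, 2082, 2205 and 2466 CPM in the 1340 livers and 645, 654 and 775 CPM in the 2680 livers (log2 fold change -1.68, standard error 0.13, edgeR adjusted p = 4.66e-05). mt-Rnr1, the small one, had 1769, 1695, 1526 and 2118 CPM in the 1340 livers and 618, 599 and 636 CPM in the 2680 livers (log2 fold change -1.52, edgeR adjusted p = 8.85e-05). Every 2680 liver lay below every 1340 liver for both, while mt-Nd1 and mt-Nd2 lay above. Of 6 transcripts of ribosomal RNA or listed as like it, in a list written after the values were seen, all 5 that could be tested were lower (mt-Rnr2, mt-Rnr1, CT010467.1, Lars2 and n-R5-8s1). Among all genes tested 2.99% were lower, and with a list chosen in this way the count is no test. Lars2 is the gene of a protein, the mitochondrial leucyl-tRNA synthetase, and what its reads here came from was not tested. The sum of the list, led by CT010467.1, was 9985, 8227, 7248 and 8018 CPM in the 1340 livers and 1925, 1994 and 1822 CPM in the 2680 livers. In the livers of the NMN mice mt-Nd1 and mt-Rnr2 gave log2 fold changes of 0.84 and -1.59 between the schedules, and in the kidneys of the water mice 1.62 and -1.51. The called mitochondrial mRNAs rose with the mitochondrial share of the libraries and the 2 mitochondrial ribosomal RNAs fell as that share rose, and both kinds are themselves a part of it. With mitochondrial genes removed the other 3 of the list were still lower. With all liver libraries in 1 fit these 3 did not pass, with edgeR adjusted p-values of 0.0637 for CT010467.1, 0.16 for Lars2 and 0.12 for n-R5-8s1. In the NMN livers the sum of the list was 8413, 8513, 7527 and 32915 CPM at 1340, where replicate 4 stood far above the others, and 2126, 1921 and 2495 CPM at 2680.

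Among the nuclear genes, Cyp2c29 rose with the smallest p. It encodes a cytochrome P450 of the drug- and lipid-oxidising Cyp2c family and is found mainly around the central vein. It had 997, 970.3, 1184 and 884 CPM in the 1340 livers and 2559.7, 2721 and 2861 CPM in the 2680 livers (log2 fold change 1.43, standard error 0.13, edgeR adjusted p = 8.78e-05). The lowest 2680 liver was above the highest 1340 liver, and the mean rose from 1009 ± 126 CPM at 1340 (SD, n = 4) to 2714 ± 151 CPM at 2680 (SD, n = 3). In the NMN mice its level was 1184, 1203, 834 and 1112 CPM at 1340 and 866, 1041 and 1627 CPM at 2680, where the libraries overlapped (log2 fold change 0.13, edgeR adjusted p = 0.748). The difference between NMN and water mice was not tested. Of 24 tested genes of P450 drug metabolism, 4 were higher and 1 lower, beside 1.45% higher and 2.99% lower among all genes tested. Their median log2 fold change was 0.36. Cyp2c50 rose from 858 ± 66 CPM at 1340 (SD, n = 4) to 1364 ± 130.5 CPM at 2680 (SD, n = 3) (log2 fold change 0.67, edgeR adjusted p = 0.00824) and Cyp2c37 from 273 ± 46.5 CPM at 1340 (SD, n = 4) to 459 ± 53.3 CPM at 2680 (SD, n = 3) (log2 fold change 0.75, edgeR adjusted p = 0.0121). Cyp2c50 and Cyp2c37 share 16.6% and 30.1% of their 50-base words with other transcripts, so reads could be divided within the family.

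The Cyp2b genes moved in opposite directions. Cyp2b9, a P450 that is more abundant in female livers, had 0.155, 0.326, 1.65 and 0.991 CPM in the 1340 livers and 4.75, 13.2 and 6.31 CPM in the 2680 livers (log2 fold change 3.35, standard error 0.61, edgeR adjusted p = 0.0146). This was the largest rise among the called genes that averaged at least 1 CPM and did not overlap. Cyp2b10, the usual target of the xenobiotic receptor CAR, had 4.73, 7.56, 8.16 and 4.36 CPM in the 1340 livers and 1.76, 2.32 and 0.850 CPM in the 2680 livers (log2 fold change -1.9, edgeR adjusted p = 0.0114). Neither gene's libraries overlapped between the groups. In the NMN mice Cyp2b9 spread over 1.03, 6.49, 18 and 4.47 CPM at 1340 and 0, 0 and 3.76 CPM at 2680. Cyp2b9 was the 1 gene of 12 tested female-biased genes that was higher, and none was lower. Gsta2, a glutathione transferase, was the only one of 19 tested NRF2 targets past the threshold in the main fit. It had 21.4, 16.6, 21.5 and 23.1 CPM in the 1340 livers and 30.2, 29.5 and 40.9 CPM in the 2680 livers (log2 fold change 0.70, edgeR adjusted p = 0.0422), and 64.2% of its words occur in other transcripts. Of the NRF2 targets, upper quartile normalization gave 3 higher, DESeq2 5 higher and 1 lower, and no filter on low counts 7 higher. Calls over all genes were 553, 1002 and 1236 in the same order. Leaving out 1 library lost the edgeR call of Cyp2b9 (1340 replicate 4, adjusted p up to 0.0595), Cyp2c37 (2680 replicate 3, adjusted p up to 0.0656) and Gsta2 (1340 replicates 2, 3 and 4, 2680 replicates 1, 2 and 3, adjusted p up to 0.185).

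Several genes of the sinusoidal endothelium rose. Of 12 endothelial markers, all tested, 5 were higher, beside 1.45% of all genes tested, and none lower, with a median log2 fold change of 0.80 against -0.02 over all genes. Their sum, led by Clec4g, was 188, 217, 155 and 152 CPM in the 1340 livers and 286, 333 and 274 CPM in the 2680 livers, without overlap. Fcgr2b, an inhibitory receptor for antibody complexes, had 25.9, 35.9, 27.9 and 27 CPM in the 1340 livers and 60.1, 62.8 and 48.9 CPM in the 2680 livers (log2 fold change 0.97, standard error 0.16, edgeR adjusted p = 0.00527). Clec4g, a lectin of sinusoidal cells, had 32.8, 33.7, 25.9 and 23.6 CPM in the 1340 livers and 57.7, 70.0 and 50.2 CPM in the 2680 livers (log2 fold change 1.03, standard error 0.17, edgeR adjusted p = 0.0054). In both genes the lowest 2680 liver was above the highest 1340 liver. Stab2, the scavenger receptor that takes up hyaluronan, rose from 21.7 ± 5.07 CPM at 1340 (SD, n = 4) to 38.7 ± 5.32 CPM at 2680 (SD, n = 3). Tek, the angiopoietin receptor, rose from 4.76 ± 1.25 CPM at 1340 (SD, n = 4) to 10.6 ± 3.19 CPM at 2680 (SD, n = 3), and Oit3 from 9.56 ± 3.53 CPM at 1340 (SD, n = 4) to 19.9 ± 2.23 CPM at 2680 (SD, n = 3). Gpihbp1, which anchors lipoprotein lipase to the capillary wall and was not in the list, had 8.76, 10.2, 8.03 and 8.72 CPM in the 1340 livers and 19.9, 26.9 and 20.0 CPM in the 2680 livers (log2 fold change 1.32, standard error 0.19, edgeR adjusted p = 0.00252). In bulk tissue, more cells of a type and more RNA per cell cannot be told apart, nor can fewer cells and less RNA per cell. The edgeR call depended on single libraries for Stab2 (1340 replicates 3 and 4, 2680 replicates 2 and 3, adjusted p up to 0.131), Tek (1340 replicates 2, 3 and 4, 2680 replicates 1 and 2, adjusted p up to 0.129) and Oit3 (1340 replicates 3 and 4, 2680 replicates 1, 2 and 3, adjusted p up to 0.139). Over all alternatives run, between 2 and 7 of the 12 markers were higher and none lower.

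Markers of Kupffer cells and macrophages lay on the same side, and how many passed depended on the processing. All 12 had a positive log2 fold change, with a median of 0.68, and 1 of them passed. C1qb, a chain of complement C1q, had 17.6, 29.5, 21.8 and 16.4 CPM in the 1340 livers and 41.3, 54.1 and 29 CPM in the 2680 livers (log2 fold change 0.96, edgeR adjusted p = 0.0475). C1qc had 17.4, 25.2, 20.6 and 19.5 CPM in the 1340 livers and 37.1, 47.7 and 23.1 CPM in the 2680 livers (edgeR adjusted p = 0.0676) and Vsig4, a complement receptor, 5.51, 12.1, 12 and 4.42 CPM in the 1340 livers and 22.1, 31.6 and 15.1 CPM in the 2680 livers (edgeR adjusted p = 0.0837). In all 3 genes the third 2680 liver was the lowest of its group. The summed level of the list, led by Clec4f, was 188, 269.9, 257 and 164 CPM at 1340 and 348, 496 and 241 CPM at 2680, and here the groups overlapped. Dropping 1 library lost the edgeR call of C1qb (1340 replicates 1, 3 and 4, 2680 replicates 1 and 2, adjusted p up to 0.199). Over all alternatives run, between 0 and 8 of the 12 were higher and none lower, with the most where no filter on low counts was applied. Leaving out 2680 replicate 3 brought the number of higher markers to 3, and without 2680 replicate 2 the median fell to 0.33.

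Among the lymphocyte markers 7 of 14 could be tested and 1 was higher. Igkc, the constant region of the kappa antibody light chain, had 2.17, 3.98, 2.68 and 2.05 CPM in the 1340 livers and 9.87, 18 and 8.86 CPM in the 2680 livers (log2 fold change 2.17, standard error 0.31, edgeR adjusted p = 0.00258), with no overlap. Ighm, the heavy chain of IgM, had 7.52, 7.04, 6.24 and 3.24 CPM in the 1340 livers and 8.64, 15.5 and 14.3 CPM in the 2680 livers (edgeR adjusted p = 0.0572). The sum of the list, led by Ighm, was 17.8, 17.5, 14.8 and 10.4 CPM and 27.6, 43.8 and 29.4 CPM. Of 12 stellate cell and fibroblast markers 1 was higher. It was Reln, a secreted glycoprotein of stellate cells, at 24.7, 29.5, 27.4 and 18.8 CPM in the 1340 livers and 43.6, 38.9 and 46 CPM in the 2680 livers (log2 fold change 0.77, edgeR adjusted p = 0.0221). Dropping 1 library lost the edgeR call of Reln (1340 replicate 4, 2680 replicates 1, 2 and 3, adjusted p up to 0.0891). None of 8 tested cholangiocyte markers, 3 neutrophil markers or 6 erythroid markers passed. The erythroid markers, led by Alas2, summed to 175, 127, 104 and 117 CPM in the 1340 livers and 134, 147 and 132 CPM in the 2680 livers. Of the adipocyte and muscle markers only 2 of 12 had enough reads, and of these Car3, a carbonic anhydrase that male liver also expresses, was higher with 3132, 2101, 2031 and 1867 CPM in the 1340 livers and 4314, 4431 and 4206 CPM in the 2680 livers (log2 fold change 0.92, edgeR adjusted p = 0.00725).

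A few genes that activate and build fatty acids rose in the 2680 livers. Acsl5, which links fatty acids to coenzyme A, had 284, 290.5, 294 and 255 CPM in the 1340 livers and 614, 467 and 581 CPM in the 2680 livers (log2 fold change 0.98, standard error 0.13, edgeR adjusted p = 0.00188). Acss2, which makes acetyl-CoA from acetate, had 146, 114, 175 and 108 CPM in the 1340 livers and 291, 295 and 356 CPM in the 2680 livers (log2 fold change 1.21, standard error 0.17, edgeR adjusted p = 0.00252). The groups did not overlap for either gene. A fatty acid synthesis list held Acss2 but not Acsl5. Of its 23 tested genes 2 were higher, beside 1.45% of all genes tested, and none lower. A positive log2 fold change was found for 18 of them, and the median was 0.40. The second higher gene was Elovl5, an elongase of polyunsaturated fatty acids, at 164, 269, 230.4 and 205 CPM in the 1340 livers and 336, 301 and 454 CPM in the 2680 livers (log2 fold change 0.74, edgeR adjusted p = 0.0373). Scd1, the stearoyl-CoA desaturase, stood just outside the threshold with 1855, 4307, 3869 and 3284 CPM in the 1340 livers and 8357, 5669 and 9317 CPM in the 2680 livers (edgeR adjusted p = 0.0514). Fasn, the fatty acid synthase itself, had 448, 341, 419.7 and 681 CPM in the 1340 livers and 753, 772 and 707 CPM in the 2680 livers (log2 fold change 0.65, edgeR adjusted p = 0.0901), and Acacb had 68.1, 53.1, 69.4 and 43.1 CPM in the 1340 livers and 81.8, 80.7 and 109 CPM in the 2680 livers (edgeR adjusted p = 0.0792). Srebf1, the transcription factor that drives many of these genes, had 325, 281, 403 and 348 CPM in the 1340 livers and 409, 616 and 322 CPM in the 2680 livers and overlapped between the groups (edgeR adjusted p = 0.316). With the replicate block 11 of the 23 genes were higher, beside 3.52% higher among all genes tested in that fit, and none was lower. Dropping 1 library lost the edgeR call of Elovl5 (1340 replicates 3 and 4, 2680 replicates 1 and 3, adjusted p up to 0.164).

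The other lipid genes gave a small number of calls in both directions, which stand beside 1.45% higher and 2.99% lower among all genes tested. Of 24 genes of cholesterol synthesis 1 was higher, Nsdhl, which removes methyl groups from sterols, at 60.3, 41.3, 68.5 and 54.6 CPM in the 1340 livers and 103, 93.1 and 121 CPM in the 2680 livers (log2 fold change 0.91, edgeR adjusted p = 0.0101). Of 23 tested lipoprotein genes 2 were higher and 1 lower. Lipc, hepatic lipase, rose from 169 ± 22.5 CPM at 1340 (SD, n = 4) to 252 ± 26.4 CPM at 2680 (SD, n = 3) and Apoa5, which lowers plasma triglyceride, fell from 1516 ± 275 CPM at 1340 (SD, n = 4) to 978 ± 113 CPM at 2680 (SD, n = 3), with edgeR adjusted p-values of 0.0373 and 0.0431. Neither gene overlapped between the groups, and in the NMN livers Lipc went the other way between the schedules with a log2 fold change of -0.76 (edgeR adjusted p = 0.00991). Slc10a1, which takes bile acids up from the blood, was the 1 higher gene of 20 tested bile acid genes, at 458, 666, 580.02 and 613 CPM in the 1340 livers and 784, 1187 and 1225 CPM in the 2680 livers (log2 fold change 0.88, edgeR adjusted p = 0.0114). Cyp7a1, the rate-limiting enzyme of bile acid synthesis, had 72.5, 22.3, 139.96 and 136 CPM in the 1340 livers and 22.7, 74.5 and 24.2 CPM in the 2680 livers (edgeR adjusted p = 0.507). Calls that were lost in edgeR when 1 library was dropped were those of Nsdhl (2680 replicate 3, adjusted p up to 0.0524), Lipc (1340 replicates 3 and 4, 2680 replicates 1, 2 and 3, adjusted p up to 0.171), Apoa5 (1340 replicates 2, 3 and 4, 2680 replicates 1, 2 and 3, adjusted p up to 0.169) and Slc10a1 (2680 replicates 2 and 3, adjusted p up to 0.0663).

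Albumin and a few enzymes of amino acid breakdown were higher in the 2680 livers. The counts of higher genes in the lists of this paragraph stand beside 1.45% higher among all genes tested. Alb, the main plasma protein, had 67850.4, 86268, 63465 and 78882 CPM in the 1340 livers and 132417, 120187 and 119670.00 CPM in the 2680 livers (log2 fold change 0.74, standard error 0.13, edgeR adjusted p = 0.00555). All 3 livers at 2680 were above all 4 at 1340. Alb was the 1 of 10 hepatocyte markers that passed. Cp, the copper-carrying ferroxidase ceruloplasmin, was the 1 higher gene of 23 acute phase genes, from 1013 ± 158 CPM at 1340 (SD, n = 4) to 1605 ± 67.1 CPM at 2680 (SD, n = 3) (log2 fold change 0.66, edgeR adjusted p = 0.0138). Hpd and Hgd, successive steps of tyrosine breakdown, rose from 1842 ± 56.6 CPM at 1340 (SD, n = 4) to 2855 ± 472 CPM at 2680 (SD, n = 3) and from 552 ± 40.6 CPM at 1340 (SD, n = 4) to 812 ± 45.3 CPM at 2680 (SD, n = 3), and were 2 of 24 genes of the urea cycle and amino acid breakdown. Kynu and Haao, on the route from tryptophan to NAD+, rose from 141 ± 19.6 CPM at 1340 (SD, n = 4) to 207 ± 9.55 CPM at 2680 (SD, n = 3) and from 542 ± 38.2 CPM at 1340 (SD, n = 4) to 749 ± 61.9 CPM at 2680 (SD, n = 3), and were 2 of 26 tested genes of NAD+ metabolism. The edgeR adjusted p-values of these 4 were 0.0132, 0.0169, 0.04 and 0.0477. Nampt, the rate-limiting enzyme of NAD+ salvage, had 27, 32.2, 62.3 and 42.5 CPM in the 1340 livers and 32.2, 35.3 and 45.3 CPM in the 2680 livers (edgeR adjusted p = 0.851). Nnmt, which methylates nicotinamide, had 142, 97, 151 and 256 CPM in the 1340 livers and 111, 115 and 54.6 CPM in the 2680 livers (edgeR adjusted p = 0.327). The transcripts of the serum aminotransferases did not pass, with log2 fold changes of -0.05 for Gpt and 0.43 for Got1 (edgeR adjusted p = 0.89 and 0.246). With 1 library left out the edgeR call was lost for Cp (1340 replicate 4, 2680 replicates 1 and 2, adjusted p up to 0.0636), Hpd (2680 replicate 2, adjusted p up to 0.082), Hgd (1340 replicates 2 and 4, 2680 replicates 1 and 2, adjusted p up to 0.0908), Kynu (1340 replicates 1, 2 and 4, 2680 replicates 1, 2 and 3, adjusted p up to 0.151) and Haao (each of the 7 libraries, adjusted p up to 0.201).

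**Figure D4:**
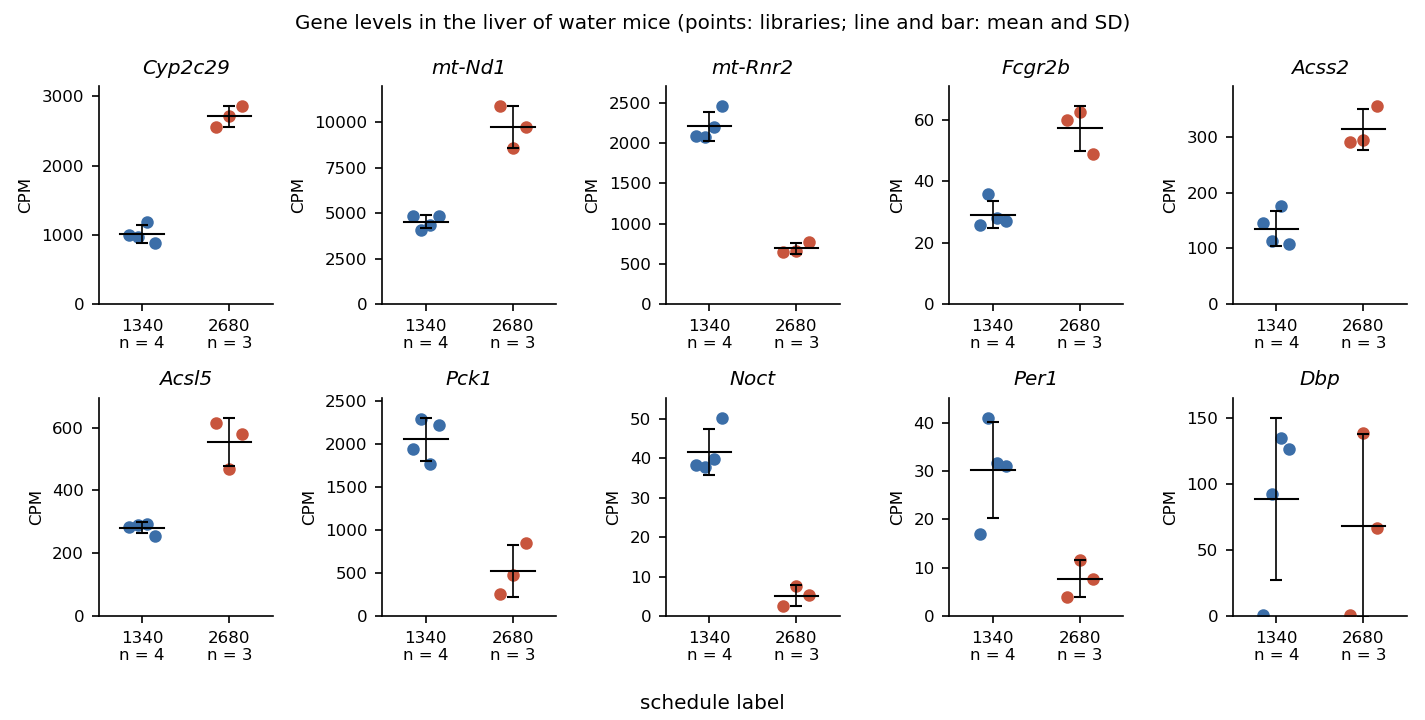
CPM of 10 genes in each liver of the water mice, 4 at 1340 (blue) and 3 at 2680 (red), with the mean and SD. In the first 9 panels the groups are apart, while Dbp is near 0 in 1 library of each group and overlaps, and its bars are cut at 0.

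Pck1, Noct and Per1 fell in the 2680 livers. Pck1, the gluconeogenic enzyme that glucagon induces and insulin represses, had 1939, 2292, 1759.95 and 2223 CPM in the 1340 livers and 251, 479 and 842 CPM in the 2680 livers (log2 fold change -1.97, standard error 0.39, edgeR adjusted p = 0.0374). Noct, a rhythmic phosphatase of the liver, had 38.3, 37.8, 39.9 and 50.3 CPM in the 1340 livers and 2.51, 7.65 and 5.34 CPM in the 2680 livers (log2 fold change -3.01, standard error 0.32, edgeR adjusted p = 0.000897). Per1, a repressor of the circadian clock that glucocorticoids and cAMP also induce, had 16.9, 41, 31.8 and 31 CPM in the 1340 livers and 3.89, 11.6 and 7.59 CPM in the 2680 livers (log2 fold change -1.97, standard error 0.40, edgeR adjusted p = 0.0275). In all 3 genes every 2680 liver was below every 1340 liver, and Noct kept its call in every alternative. The call of Pck1 was lost with the replicate block (edgeR adjusted p = 0.19), without a filter on low counts and with offsets for GC content and length. Leaving out 1 library lost the edgeR call of Pck1 (1340 replicates 1, 2, 3 and 4, 2680 replicate 2, adjusted p up to 0.138) and Per1 (1340 replicates 3 and 4, 2680 replicate 3, adjusted p up to 0.124).

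The start-site windows of these 3 genes are shown beside their values. Each runs from 250 bases before to 50 bases after a start, in RefSeq sequence of GRCm38.p6, and Per1 has 2 starts. Capitals mark the letters TGACG, the half-site of a cAMP response element, and the E-box CACGTG, which clock factors can bind, on either strand (TGACG reads CGTCA on the other).
Pck1, chr2:173152823-173153122 (+ strand): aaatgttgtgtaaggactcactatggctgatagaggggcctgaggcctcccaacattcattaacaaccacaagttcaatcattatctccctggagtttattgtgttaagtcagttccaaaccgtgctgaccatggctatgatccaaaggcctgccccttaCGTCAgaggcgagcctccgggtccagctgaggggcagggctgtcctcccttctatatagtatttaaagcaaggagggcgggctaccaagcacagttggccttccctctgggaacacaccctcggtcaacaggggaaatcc
Noct, chr3:51224197-51224496 (+ strand): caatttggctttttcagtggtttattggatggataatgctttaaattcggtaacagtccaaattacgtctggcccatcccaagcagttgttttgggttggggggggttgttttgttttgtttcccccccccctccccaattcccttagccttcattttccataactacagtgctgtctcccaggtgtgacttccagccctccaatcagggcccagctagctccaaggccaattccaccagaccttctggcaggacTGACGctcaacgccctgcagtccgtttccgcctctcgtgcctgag
Per1, chr11:69098699-69098998 (+ strand): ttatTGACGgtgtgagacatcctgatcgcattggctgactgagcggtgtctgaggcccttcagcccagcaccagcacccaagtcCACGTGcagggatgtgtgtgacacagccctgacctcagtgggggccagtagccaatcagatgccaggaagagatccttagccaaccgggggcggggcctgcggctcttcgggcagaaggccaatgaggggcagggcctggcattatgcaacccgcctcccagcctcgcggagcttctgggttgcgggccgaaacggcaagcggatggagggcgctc
Per1, chr11:69099902-69100201 (+ strand): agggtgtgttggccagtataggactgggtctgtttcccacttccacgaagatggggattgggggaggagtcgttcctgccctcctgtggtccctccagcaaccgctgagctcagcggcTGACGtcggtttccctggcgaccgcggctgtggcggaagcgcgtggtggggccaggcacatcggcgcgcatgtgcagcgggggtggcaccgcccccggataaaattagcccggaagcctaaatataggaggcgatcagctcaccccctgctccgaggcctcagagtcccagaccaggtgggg
TGACG was found 1 time in each of the 4 windows, and in 20.8% of all 32851 windows of this length. CACGTG was found in the first window of Per1 only, and in 7.15% of all windows. A match is a description of the letters and not a binding site.

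The clock genes Dbp, Arntl and Nr1d1 varied widely within the groups and did not pass. Dbp, a clock output factor with a steep daily rhythm, had 0.620, 92.2, 135 and 126 CPM in the 1340 livers and 0.427, 138 and 66.5 CPM in the 2680 livers. Replicate 1 of each group was near 0. Arntl, which peaks when Dbp is low, had 20.9, 3.85, 1.44 and 0.925 CPM in the 1340 livers and 25.7, 3.38 and 7.53 CPM in the 2680 livers, and was highest in replicate 1 of each group. Nr1d1, a repressor of Arntl, had 4.03, 89.8, 76.8 and 79.2 CPM in the 1340 livers and 33.6, 153 and 154 CPM in the 2680 livers and was lowest in the same pair of libraries. The edgeR adjusted p-values were 0.943, 0.788 and 0.734. Replicate 1 of each group thus stood apart from the other livers in these genes, and the time of day of sampling was not given in the sources used here. Of 14 core clock genes 2 were lower, Per1 and Rora, beside 2.99% lower among all genes tested. Rora, an activator of Arntl, had 80.0, 66.3, 82.7 and 65.2 CPM in the 1340 livers and 49, 36.5 and 44.4 CPM in the 2680 livers (log2 fold change -0.77, edgeR adjusted p = 0.0146). Per2 had 12.3, 9.52, 23.9 and 19 CPM in the 1340 livers and 9.49, 11.8 and 9.71 CPM in the 2680 livers (edgeR adjusted p = 0.245). Of 14 tested clock output genes 1 was lower, Noct. Dropping 1 library lost the edgeR call of Rora (2680 replicates 2 and 3, adjusted p up to 0.094).

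The number of calls in the hormone lists depended on the processing. Of 19 tested glucocorticoid response genes Per1 was the 1 that passed, although the median log2 fold change of the list was -0.74. With the replicate block 1 higher and 7 lower were called, with DESeq2 0 higher and 5 lower, and without a filter on low counts 1 higher and 5 lower. Calls over all genes rose as well, from 557 to 1038, 1002 and 1236 in the same order. Among all genes tested 2.99% were lower in the main fit, and 3.52% were higher and 4.76% lower with the block. Fkbp5, a glucocorticoid-induced chaperone, had 30.7, 72.3, 46 and 52.4 CPM in the 1340 livers and 23.3, 47.3 and 25.5 CPM in the 2680 livers (edgeR adjusted p = 0.333, and 0.015 with the block). Tat, tyrosine aminotransferase, had 2275, 1555, 1499.8 and 1597 CPM in the 1340 livers and 1235, 1276 and 894 CPM in the 2680 livers (edgeR adjusted p = 0.0736, and 0.00935 with the block). Mt1 and Mt2, the metallothioneins, spread over 16.1, 121, 497 and 381 CPM and 3.02, 23.3, 114 and 36.6 CPM within the 1340 livers alone, and over 98.2, 265 and 33 CPM and 3.57, 52.3 and 4.37 CPM at 2680. Their edgeR adjusted p-values were 0.77 and 0.762. Igfbp1, an insulin-repressed binding protein, had 157, 12.8, 31.9 and 30.2 CPM in the 1340 livers and 112, 34.7 and 45.5 CPM in the 2680 livers (edgeR adjusted p = 0.959). Of 22 genes of gluconeogenesis and insulin signalling Pck1 alone passed, and with the block 2 higher and 2 lower were called, without Pck1.

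Genes of peroxisomal and fasting fat use, of hypoxia and of heat shock gave a small number of lower genes, which stand beside 2.99% lower among all genes tested. Of 33 PPAR-alpha targets and genes of fatty acid oxidation 3 were lower and none higher, with a median log2 fold change of 0.01. Acaa1a, a peroxisomal thiolase, fell from 191 ± 26.7 CPM at 1340 (SD, n = 4) to 112 ± 18.6 CPM at 2680 (SD, n = 3). The acyl-CoA thioesterases Acot4 and Acot1 fell from 56.6 ± 19.1 CPM at 1340 (SD, n = 4) to 24.6 ± 3.91 CPM at 2680 (SD, n = 3) and from 16.4 ± 4.05 CPM at 1340 (SD, n = 4) to 8.75 ± 1.23 CPM at 2680 (SD, n = 3), with edgeR adjusted p-values of 0.0148, 0.0387 and 0.04 for the 3. Cyp4a14, a fatty acid hydroxylase that fasting induces, had 6.82, 81.5, 146 and 115 CPM in the 1340 livers and 357, 219 and 232 CPM in the 2680 livers (edgeR adjusted p = 0.422). Of 18 tested hypoxia targets 2 were lower. Pfkfb3, an activator of glycolysis, had 9.31, 17.4, 10.5 and 19.7 CPM in the 1340 livers and 4.37, 4.96 and 5.16 CPM in the 2680 livers (log2 fold change -1.56, edgeR adjusted p = 0.00804), and Higd1a, a mitochondrial protein, had 66, 48.6, 39.5 and 57.6 CPM in the 1340 livers and 29.5, 24.8 and 21.2 CPM in the 2680 livers (log2 fold change -1.07, edgeR adjusted p = 0.00804). Both were lower in every 2680 liver than in any 1340 liver. Dnajb1, a co-chaperone, was the 1 lower gene of 20 tested heat shock genes, from 28.9 ± 5.18 CPM at 1340 (SD, n = 4) to 15.6 ± 3.66 CPM at 2680 (SD, n = 3) (edgeR adjusted p = 0.0295). The edgeR call depended on single libraries for Acaa1a (1340 replicate 4, 2680 replicates 1 and 3, adjusted p up to 0.0791), Acot4 (1340 replicates 2, 3 and 4, 2680 replicates 1, 2 and 3, adjusted p up to 0.142), Acot1 (1340 replicates 2 and 4, 2680 replicates 1, 2 and 3, adjusted p up to 0.177) and Dnajb1 (1340 replicates 2 and 4, 2680 replicates 2 and 3, adjusted p up to 0.12).

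Apart from the transcripts of the nervous system, Zbtb20 and Mup19 were among the lower nuclear genes with the smallest p. Zbtb20, a zinc finger repressor that hepatocytes express strongly, had 311, 292, 276 and 248 CPM in the 1340 livers and 35.1, 44.9 and 56.9 CPM in the 2680 livers (log2 fold change -2.63, standard error 0.18, edgeR adjusted p = 1.49e-05). It fell without overlap, and in the kidneys of the water mice its log2 fold change was -1.18. Mup19, a major urinary protein, had 137, 74.2, 65.4 and 74.2 CPM in the 1340 livers and 0.267, 0.475 and 0.364 CPM in the 2680 livers (log2 fold change -7.86, standard error 0.39, edgeR adjusted p = 3.62e-06). All of its 50-base words occur in other transcripts, so its count cannot be separated from those of its copies. Mup19 was near 0 at 2680 and passed the filter on low counts through the 1340 livers alone, so it could be called only as lower. Of 18 tested major urinary protein genes, in a list written after the values were seen, 4 were lower (Mup19, Mup8, Mup13 and Mup7) and 1 higher. Among all genes tested 2.99% were lower and 1.45% higher, and with a list chosen in this way the count is no test. The summed level of the 21 listed was 31174, 20269, 15786 and 21397 CPM in the 1340 livers and 12518, 16891 and 14317 CPM in the 2680 livers. Mup7 had 7371, 4009.7, 2882 and 3705 CPM in the 1340 livers and 691, 1453 and 1096 CPM in the 2680 livers (log2 fold change -2.05, edgeR adjusted p = 0.0385), and its edgeR adjusted p was 0.27 with the replicate block. Mup6, the higher one, had 0.233, 0.587, 0.412 and 0.264 CPM in the 1340 livers and 1.01, 2.64 and 2.61 CPM in the 2680 livers (log2 fold change 2.44, edgeR adjusted p = 0.0192). Mup6 passed the filter on low counts through the 2680 livers, so it could be called only as higher. Mup7 was also the 1 lower gene of 19 tested male-biased genes. More than 50% of the words were shared in 7.47% of all lower genes, in 6.04% of all higher genes and in 2.54% of all genes tested. Calls that were lost in edgeR when 1 library was dropped were those of Mup7 (1340 replicates 2, 3 and 4, 2680 replicates 1, 2 and 3, adjusted p up to 0.147) and Mup6 (1340 replicate 4, 2680 replicates 2 and 3, adjusted p up to 0.101).

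Some nuclear noncoding RNAs and some mRNAs of ribosomal proteins were lower. Of 9 tested nuclear noncoding RNAs 3 fell, beside 2.99% lower among all genes tested, with a median log2 fold change of -0.87. Kcnq1ot1, which silences an imprinted cluster, had 9.77, 6.78, 11.9 and 9.97 CPM in the 1340 livers and 1.97, 0.475 and 1.09 CPM in the 2680 livers (log2 fold change -3.02, standard error 0.40, edgeR adjusted p = 0.00192). Malat1, an abundant RNA of nuclear speckles, had 237, 118, 312 and 193 CPM in the 1340 livers and 72.9, 62 and 83.3 CPM in the 2680 livers (log2 fold change -1.56, edgeR adjusted p = 0.0169). Snhg11 fell from 7.28 ± 2.53 CPM at 1340 (SD, n = 4) to 2.58 ± 1.21 CPM at 2680 (SD, n = 3) (edgeR adjusted p = 0.0397). Of 45 cytosolic ribosomal protein genes 1 was higher and 5 lower, beside 1.45% higher and 2.99% lower among all genes tested, with a median of -0.21. With estimates that were not robust 1 was higher and 2 were lower. Rps6 rose from 168 ± 14.4 CPM at 1340 (SD, n = 4) to 281 ± 34.6 CPM at 2680 (SD, n = 3) and Rpl38 fell from 77.2 ± 8.84 CPM at 1340 (SD, n = 4) to 46.4 ± 2.34 CPM at 2680 (SD, n = 3), both without overlap. Rpl24 and Rpl27 fell with log2 fold changes of -0.90 and -0.81, and Rpl18 and Rpl13 were the other lower ones. The edgeR adjusted p-values of Rps6, Rpl38, Rpl24 and Rpl27 were 0.0082, 0.0111, 0.0222 and 0.0361. Between 40.2% and 81.7% of the words of these 4 genes occur in other transcripts, so their counts depend on how reads with more than 1 place were treated. Of 39 tested nuclear genes of oxidative phosphorylation 2 were lower, Cox6c from 219.7 ± 24.7 CPM at 1340 (SD, n = 4) to 123 ± 6.63 CPM at 2680 (SD, n = 3) and Cox7c from 168 ± 23.1 CPM at 1340 (SD, n = 4) to 95 ± 7.25 CPM at 2680 (SD, n = 3) (edgeR adjusted p = 0.00477 and 0.00763). The median of that list was 0.06, and 2 of 39 stands beside 2.99% over all genes tested. With 1 library left out the edgeR call was lost for Malat1 (2680 replicates 1, 2 and 3, adjusted p up to 0.0784), Snhg11 (1340 replicates 2 and 3, 2680 replicates 1 and 2, adjusted p up to 0.138), Rpl38 (2680 replicates 2 and 3, adjusted p up to 0.0617), Rpl24 (1340 replicates 2 and 4, 2680 replicates 2 and 3, adjusted p up to 0.1) and Rpl27 (1340 replicates 2 and 4, 2680 replicates 2 and 3, adjusted p up to 0.152).

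Further genes stood out singly. Efna1, a membrane-bound ligand of Eph receptors, had 49.9, 31.2, 34.2 and 33.7 CPM in the 1340 livers and 91.1, 92.8 and 79.6 CPM in the 2680 livers (log2 fold change 1.24, standard error 0.17, edgeR adjusted p = 0.00228). Gbp2, an interferon-induced GTPase, was the 1 higher gene of 25 tested interferon genes, from 1.6 ± 0.304 CPM at 1340 (SD, n = 4) to 4.56 ± 1.1 CPM at 2680 (SD, n = 3) (edgeR adjusted p = 0.0158). Ftl1, the ferritin light chain, was the 1 lower gene of 23 tested genes of iron and metal handling, from 3115 ± 407 CPM at 1340 (SD, n = 4) to 1860.3 ± 261 CPM at 2680 (SD, n = 3) (edgeR adjusted p = 0.0108), and 78.9% of its words occur in other transcripts. Gm10177, with 93.9% shared words, had 0.698, 0.457, 0.137 and 0.462 CPM in the 1340 livers and 2.61, 2.27 and 2.19 CPM in the 2680 livers (log2 fold change 2.42, edgeR adjusted p = 0.0123). Gm10177 passed the filter on low counts mainly through the 2680 livers, which favours a call as higher. The acute phase genes Saa1 and Saa2 were dominated by 1 liver, with 128, 218, 6371 and 282 CPM in the 1340 livers and 1033, 288 and 617 CPM in the 2680 livers for Saa1 and 24.3, 87.8, 5293 and 122 CPM in the 1340 livers and 744, 91 and 382 CPM in the 2680 livers for Saa2 (edgeR adjusted p = 0.725 and 0.733). Of 13 kidney tubule markers 8 had enough reads for a test, several of them through the 1340 livers alone, so that no calls are counted. Slc34a1 went from 8.39 ± 0.586 CPM at 1340 (SD, n = 4) to 0.672 ± 0.678 CPM at 2680 (SD, n = 3) and Umod from 2.88 ± 0.623 CPM at 1340 (SD, n = 4) to 0.216 ± 0.276 CPM at 2680 (SD, n = 3). Slc12a1 went from 1.47 ± 0.519 CPM at 1340 (SD, n = 4) to 0.0703 ± 0.122 CPM at 2680 (SD, n = 3) and Miox from 2.26 ± 0.393 CPM at 1340 (SD, n = 4) to 0.353 ± 0.271 CPM at 2680 (SD, n = 3). The summed level of the 13, led by Aqp1, was 95.4, 105, 92.1 and 78.4 CPM and 68.5, 91.6 and 75.6 CPM, and Aqp2 and Nphs1 had no read in the 2680 livers. Leaving out 1 library lost the edgeR call of Gbp2 (1340 replicate 4, 2680 replicates 1 and 2, adjusted p up to 0.0923), Ftl1 (2680 replicate 3, adjusted p up to 0.064) and Gm10177 (2680 replicate 1, adjusted p up to 0.0524).

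Other lists of the liver held no call. None passed among 15 tested immediate early genes, 21 genes of the unfolded protein response, 14 p53 targets, 14 proliferation genes, 5 replication-dependent histones, 18 genes of collagen and matrix, 3 pancreas and gut markers and 16 genes of liver hormones. Their median log2 fold changes were -0.24, -0.28, -0.21, -0.13, -0.84, 0.34, -0.34 and 0.14 in the same order. Of the markers of hepatocyte position, 2 of 20 pericentral genes were higher (Cyp2c29 and Cyp2c37), and of 20 periportal genes 1 was higher (Alb) and 1 lower (Pck1).

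The replicate block moved the counts of further lists by more than 1.5 times, while the calls among all genes rose from 4.44% to 8.28%, with 3.52% higher and 4.76% lower. Among the lists of drug and lipid handling, 7 higher and 1 lower were called of the P450 genes, 6 higher and 0 lower of the NRF2 targets, 2 higher and 4 lower of the genes of cholesterol synthesis and 6 higher and 1 lower of the lipoprotein genes. Of the hepatocyte lists, the genes of the urea cycle and amino acid breakdown gave 5 higher and 1 lower, the pericentral genes 4 higher and 0 lower, the periportal genes 5 higher and 1 lower and the hepatocyte markers 2 higher and 1 lower. Female-biased genes gave 1 higher and 1 lower, male-biased genes 0 higher and 0 lower and major urinary proteins 1 higher and 2 lower. Heat shock genes gave 0 higher and 5 lower, hypoxia targets 0 higher and 4 lower and genes of iron and metal handling 1 higher and 1 lower. Nuclear genes of oxidative phosphorylation gave 5 higher and 2 lower and ribosomal protein genes 3 higher and 8 lower. Macrophage markers gave 3 higher and 0 lower and lymphocyte markers 2 higher and 0 lower. Of the lists with no call, the immediate early genes gave 2 higher and 1 lower, the unfolded protein response 1 higher and 1 lower, the liver hormones 2 higher and 1 lower, and p53 targets, histones and the markers of pancreas and gut 1 lower gene each. Among the genes described above, Fasn, Acacb, C1qc, Vsig4 and Ighm passed with the block, at edgeR adjusted p-values of 0.00107, 0.0239, 0.0307, 0.0455 and 0.0476.

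Some of the calls given above were also lost in edgeR under alternatives that kept every library. With all liver libraries in 1 fit these were Acot1, CT010467.1, Cyp2b9, Cyp2c37, Elovl5, Gsta2, Lars2, Nsdhl, Rora and n-R5-8s1 (adjusted p up to 0.448), where Cyp2b9 and Cyp2c37 had adjusted p-values of 0.192 and 0.0777. With at least 10 counts in every library they were Acot1, Acot4, Apoa5, C1qb, Elovl5, Gsta2, Haao, Kynu, Lipc and Snhg11 (adjusted p up to 0.0664), and with estimates that were not robust Apoa5, C1qb, Elovl5, Gsta2, Haao, Kynu, Lipc, Rpl27 and Snhg11 (adjusted p up to 0.0675). Offsets for GC content and length lost Apoa5, Mup7, Pck1, Rora and Rpl38 (adjusted p up to 0.0875), and counts thinned to the smallest library Acot1, C1qb, Gsta2 and Haao (adjusted p up to 0.0607). Without a filter on low counts the calls lost were Mup7 and Pck1 (adjusted p up to 0.0949). Among genes at 1 CPM or more in the NMN livers at 2680 they were Acot1, Acot4, Apoa5, C1qb, Elovl5, Gsta2, Haao, Kynu, Lipc, Mup7, Oit3 and Snhg11 (adjusted p up to 0.0691).

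**Figure D5:**
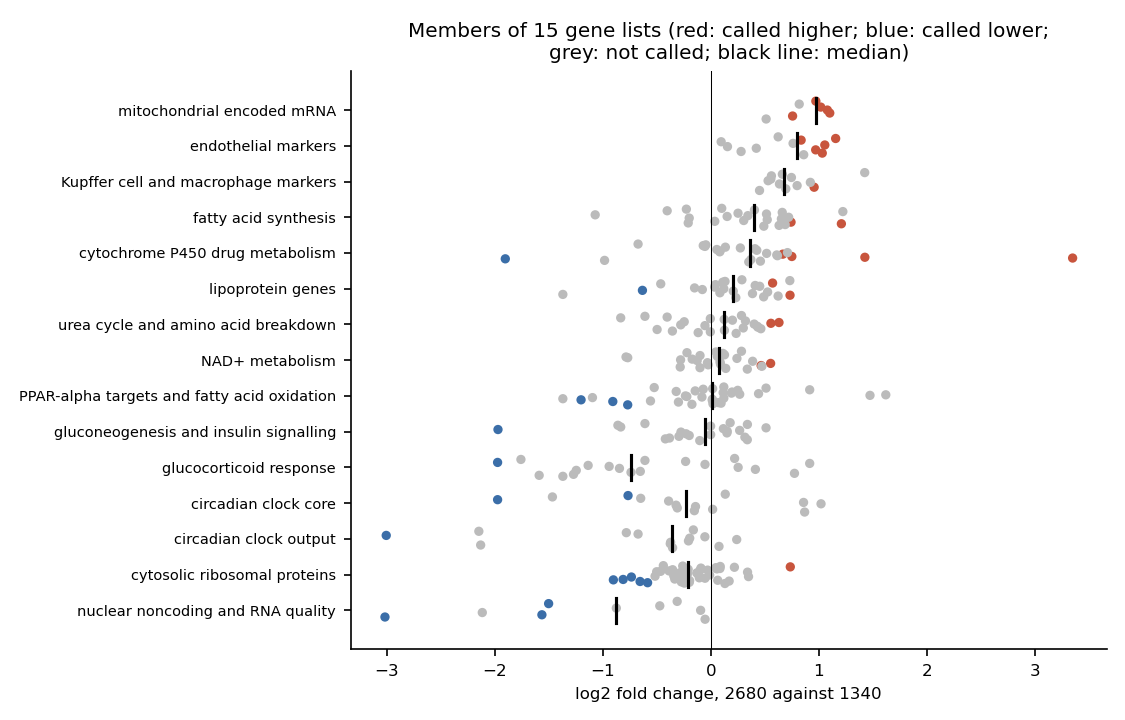
The log2 fold change, 2680 against 1340 livers, of each tested member of 15 gene lists. Red members were called higher, blue ones lower, and grey ones did not pass, and the black line is the median of the list, from 0.97 for the mitochondrial mRNAs to -0.87 for the nuclear noncoding RNAs.

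The same split of the schedules was made in mice that did receive NMN and in the kidneys of the water mice. In the NMN livers 1112 of 12743 genes passed (8.73%), 470 higher at 2680 (3.69%) and 642 lower (5.04%). In the kidneys 2787 of 15267 genes passed (18.3%), 1153 higher (7.55%) and 1634 lower (10.7%). Of the 182 genes higher in the 2680 water livers, 71 were also called higher in the NMN livers, which is 39% of that list and 15.1% of the NMN list. In the kidneys 79 were called higher, 43.4% and 6.85% of the lists. Of the 375 lower genes, 192 were lower in the NMN livers (51.2% and 29.9%) and 226 in the kidneys (60.3% and 13.8%). Calls in the opposite direction numbered 2 higher genes (Lipc and Raet1e) and 0 lower genes in the NMN livers. In the kidneys they numbered 5 higher genes (Alb, Cyp2c50, Cyp2c29, Mug2 and Dnase1l3), and 10 lower ones. The NMN livers and kidneys carry most of the same split in their library measures, so these shared calls do not tell the number of gavages apart from cohort or batch. With the replicate block the NMN livers gave 336 calls, and without NMN replicate 3 at 2680, or replicates 2, 3 or 1 at 1340, they gave 335, 455, 575 and 658. The kidneys gave 1742 and 1632 calls without replicates 2 and 3 at 2680.

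The liver and the kidney of the water mice were also compared in 1 fit. The difference between schedules differed between the organs for 296 of 15912 genes (1.86%), of which 96 were higher (0.603%) and 200 lower (1.26%) in the liver relative to the kidney. This count depended on the processing, with 30 genes at a minimum of 10 counts in every library and 512 in DESeq2. Among the 557 genes called in the liver, which were chosen by their difference in the same liver libraries, 115 had such a difference. That choice favours a difference between the organs. Acsl5 and Acss2 were 2 of them. In the kidney Acsl5 had a log2 fold change of 0.08 and Acss2 of 0.27, and the edgeR adjusted p of the difference was 0.00245 and 0.0128. Noct fell in both organs, by a log2 fold change of -3.01 in the liver and -1.08 in the kidney, and these differed (edgeR adjusted p = 0.0043). Per1 and Pck1 had log2 fold changes of -1.51 and -1.0 in the kidney, with an edgeR adjusted p of 0.776 and 0.348 for the difference. Pfkfb3 was lower in the liver and higher in the kidney (log2 fold change 0.60, edgeR adjusted p = 0.00164 for the difference).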

How the data were processed

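PolyA-selected RNA of liver was sequenced, reads were aligned with STAR at default settings and counted per gene with HTSeq-count (intersection-strict, without strand), per the study's methods, which state the genome as mm19. That name could not be matched to a build, so no coordinates were taken from the files. The values deposited by the authors are raw counts per gene, of which 1 column per library was used. Summary lines that name no gene were kept out of library sizes and tests, and their shares are given in the report. The methods name a NextSeq 550 or a HiSeq Xten and do not say which library was run on which.

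Counts were scaled by TMM and filtered with filterByExpr. Groups were compared with the quasi-likelihood test of edgeR 4.0.16 (limma 3.58.1, R 4.3.3) with robust estimates and Benjamini-Hochberg adjustment over all genes tested, 2680 minus 1340, and a gene was called at an adjusted p under 0.05. A CPM is a count per 1000000 TMM-scaled reads, and its SD is between libraries. The organ difference was the interaction of organ and schedule over the 14 libraries of water mice. This fit did not use the replicate numbers, and with the replicate block 285 genes passed, 210 of them among the 296 of the main fit. DESeq2, in version 1.42.0 here, was an alternative, and the authors used DESeq2 in another version. Depth was 12925839 to 20635269 counted reads a liver. On simulated counts for these 12541 genes, 200 genes above a minimum mean level were changed. The test recovered 56% of their 2-fold and 96% of their 4-fold changes, and 8.43% of its calls were false. The recovery of changes in the least abundant genes was not tested.

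The genes and the 44 gene lists were chosen with earlier results of these data known. Named genes were the 8 with the smallest p and the 3 with the largest fold in each direction, among called genes of at least 1 CPM without overlap, up to 4 members of each list by p, and 23 genes named for their roles. A few genes that this rule names are not reported here. mt-Cytb, Oit3, Kap, CT010467.1, Lars2, n-R5-8s1, Mup8, Mup13, Rpl18, Rpl13, Gm12718, Raet1e, Mug2, Dnase1l3 and the glia genes, and the lists of neuron, glia, ribosomal RNA and urinary protein genes, were chosen after their values were seen. The labels number the replicates of each group. Same-numbered water livers deviated together from their group means (correlations of 0.326, 0.154 and 0.210, against -0.192 to 0.0852 for other pairs), so the numbers were taken to pair the samples in a blocked alternative, and 1340 replicate 4 has no partner. Shared words are the 50-base stretches of a gene's transcripts that another gene also holds. Promoter windows were taken from RefSeq on GRCm38.p6.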

Additional observations from a re-analysis of the deposited data

Results flagged for a closer look

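Among the 4 water livers at 1340, 108 genes and library measures were looked at, and in 9 of them 1 library stood far from the other 3, by a gap that took most of the range. Chance flags about 1 in 20. Replicate 1 stood apart for Efna1 (gap over range 0.840), Mup19 (0.877), Arntl (0.853), Nr1d1 (0.848), Igfbp1 (0.868) and Tat (0.874), replicate 2 for mt-Nd2 (0.894), and replicate 3 for Saa1 (0.975) and Saa2 (0.981). Replicate 1 was the highest library in all of its genes but Nr1d1, where it was the lowest.

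For 23 of 101 named genes the difference between the schedules differed between liver and kidney in the edgeR interaction test. Among all genes tested the share was 1.86%. Most of the 101 were chosen for their values in the liver, which favours such differences. Values are the log2 fold change in the liver minus that in the kidney. It was positive for Acsl5 (0.90), Acss2 (0.95), Efna1 (1.06), Slc10a1 (1.77), Alb (3.65), Cyp2b9 (3.78), Cyp2c29 (4.78), Mup7 (6.19), Cyp2c37 (6.25), Apoa5 (6.58), Tat (6.89) and Cyp2c50 (6.96). Mup7, Cyp2c37, Apoa5, Tat and Cyp2c50 had no read in the kidneys at 2680 and Camk2a none in the livers at 2680, so that the fitted values of these genes depend on the prior count and are no bounds. Hepatocyte transcripts such as Alb were lower in the kidneys of the 2680 schedule, where liver transcripts as a set were also lower, and the part of that in these values was not tested. It was negative for Zbtb20 (-1.45), Noct (-1.92), Pfkfb3 (-2.16), Snhg11 (-2.19), Miox (-2.58), Cyp2b10 (-2.71), Slc34a1 (-3.31), Kap (-3.34), Umod (-3.35), Slc12a1 (-4.23) and Camk2a (-7.46). Miox, Slc34a1, Kap, Umod and Slc12a1 are kidney transcripts, which stood at a low level in the 1340 livers, and the part of that in their values was not tested either.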

How the results depend on the processing

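Of the 74 named genes that passed in the water livers, 41 were lost in at least 1 alternative and 19 were tested and passed in all of them. A further 14 passed in each one that tested them, and none changed sign. The 74 include Slc34a1, Umod, Slc12a1, Miox, Snap25, Camk2a, Slc17a7, Bc1 and Mup19. These are near 0 at 2680 and passed the filter on low counts through the 1340 livers. Mup6 and Gm10177, also among the 74, passed it mainly through the 2680 livers. The 557 calls became 1002 with DESeq2, 1236 without a filter on low counts, 305 with at least 10 counts in every library, 1038 with the replicate block, and 307 among genes at 1 CPM or more in the NMN livers at 2680, an alternative chosen after seeing the data. Adjusted p under 0.01 with a fold over 2 left 169, and 2357 genes had an unadjusted p under 0.05. Leaving out 1 library gave 310 to 657. The 61 calls among the gene lists, of which the kidney tubule markers Slc34a1, Umod, Slc12a1 and Miox are 4, became 138 without a filter and 142 with the replicate block, and 39 to 82 with 1 library left out. The 1112 calls of the NMN livers became 1696 with DESeq2, 1985 without a filter, 336 with the replicate block, 209 at the stricter threshold and 3216 unadjusted, and 335 to 1184 with 1 library left out. The 2787 kidney calls became 350 and 4859 at those thresholds and 1632 to 2880 with 1 library left out. The 296 organ differences became 159 and 1901 at those thresholds, 512 with DESeq2 and 30 with at least 10 counts in every library, and 211 to 349 with 1 library left out. The cause of these shifts was not tested, except that a filter changes which genes are tested.

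The ambiguous share differed by -0.708 percentage points as a share of counted reads, and the genes with at least 10 thinned counts by -472. With 1 library left out the differences, 2680 minus 1340, ran from -0.631 to -0.516 points for ambiguous reads, 4.86 to 6.39 units of 1000000 for counted reads, -1290.67 to -1034 for detected genes, 1.76 to 2.57 points for the mitochondrial share, -2.64 to -1.83 for reads outside exons, 2.82 to 3.72 for reads that were not unique and 3.14 to 4.29 for the 10 most abundant genes. Log2 fold changes of genes that were not called turned with the replicate block for Mt1 (0.32), Saa1 (0.15) and Saa2 (0.18), and with GC and length offsets for Gpt (0.026). With 1 library left out, and turned by the library named, they ran from -1.95 to 1.61 for Saa1, from -2.54 to 2.36 for Saa2 and from -0.28 to 0.14 for Nampt (1340 replicate 3), from -0.29 to 2.55 for Arntl and from -1.41 to 0.22 for Dbp (2680 replicate 1), from -0.23 to 0.082 for Gpt (2680 replicate 3) and from -0.52 to 1.36 for Igfbp1 (1340 replicates 2, 3 and 4 and 2680 replicate 1).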
